A study of Mus musculus with 20 samples.

Results

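Acyl-CoA thioesterase transcripts were followed in whole hearts of db/db and db/+ mice. The 7 genes described, Acot1, Acot2, Acot7, Acot8, Acot9, Acot11 and Acot13, were found by symbol among the 11856 genes of the expression table, and all 7 were present. The family was chosen by its input FPKM in db/db against db/+ hearts, in which Acot1 and Acot2 were already known to be higher in db/db. Their expression in the 2 genotypes is therefore given as a description, with no p for any member, whereas the m6A peaks, which were not used in the choice, were tested.

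Hearts came from 5 db/db mice, homozygous for a leptin receptor mutation that leads to obesity and diabetes, and from 5 db/+ mice, heterozygous for it, all on the C57BL/6 background. The db/+ animals are called wild type in the genotype field of the labels, and the sample titles were followed. Each heart gave an input RNA library and a second library of fragments captured by an antibody against N6-methyladenosine (m6A), a methyl mark on messenger RNA that is often found near stop codons and in 3′ untranslated regions. Ages and sexes were not analysed here, and all cells of the mice carry the db allele, so effects arising in the heart cannot be told apart from effects of the whole animal's metabolic state.

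Acyl-CoA thioesterases split an acyl-CoA into a free fatty acid and coenzyme A, the reverse of the step by which acyl-CoA synthetases trap a fatty acid inside the cell. The family is spread over compartments: Acot1, Acot7 and Acot11 are cytosolic, Acot2, Acot9 and Acot13 are associated with mitochondria, and Acot8 is peroxisomal. Acot1 and Acot2 prefer long-chain acyl-CoAs, lie side by side in the mouse genome, and are textbook targets of PPAR-alpha, a nuclear receptor that fatty acids activate and that drives fat oxidation in heart and liver.

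Acot2 lay on the plus strand of chromosome 12 from 83987861 to 83993873, and Acot1 followed from 84009490 to 84018371, as the authors' table gives the positions, which fit the build GRCm38. In RefSeq's gene table of GRCm38.p6, 6 coding genes, all of them Acot genes, stood in a row over 121.923 kb in the order Acot2, Acot1, Acot4, Acot3, Acot5 and Acot6, with 15.624 kb between Acot2 and Acot1. The other members were scattered, Acot7 and Acot11 on chromosome 4, Acot8 on chromosome 2, Acot9 on chromosome X and Acot13 on chromosome 13. The 250 bases before the RefSeq start of each of the pair are shown because their transcripts were the members that stood higher in db/db hearts. Capitals mark the letters CCAAT (the CCAAT box) or GGGCGG (the GC box), read on either strand. Both windows are RefSeq sequence of GRCm38.p6 on the plus strand, chr12:84009252-84009501 for Acot1 and chr12:83987611-83987860 for Acot2. RefSeq starts Acot1 12 bases after the start in the authors' table, so the Acot1 window and the distances given for it count from the RefSeq start.
Acot1: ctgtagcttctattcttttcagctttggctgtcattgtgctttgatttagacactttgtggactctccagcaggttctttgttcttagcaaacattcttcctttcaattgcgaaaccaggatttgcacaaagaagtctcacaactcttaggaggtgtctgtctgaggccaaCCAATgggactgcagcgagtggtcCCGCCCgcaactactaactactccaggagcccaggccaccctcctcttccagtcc
Acot2: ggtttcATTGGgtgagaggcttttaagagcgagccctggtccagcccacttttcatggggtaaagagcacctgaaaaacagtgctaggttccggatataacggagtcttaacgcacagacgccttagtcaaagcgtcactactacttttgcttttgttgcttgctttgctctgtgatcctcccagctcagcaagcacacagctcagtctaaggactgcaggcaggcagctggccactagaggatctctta

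The Acot1 window held a CCAAT box 79 to 75 bases upstream and a GC box, on the opposite strand, 55 to 50 bases upstream, while the Acot2 window held only a CCAAT box, on the opposite strand, 244 to 240 bases upstream. These letters are common: CCAAT occurred on either strand in 33.8% and GGGCGG in 32.7% of the 32851 windows of the same length. The direct repeat to which PPAR-alpha binds with its partner RXR was searched as AGGTCANAGGTCA on both strands and occurred in 0.0335% of all windows. Neither it nor its single repeat unit, AGGTCA, which overlaps it and occurred in 14% of windows, was in these letters for any of the 6 members with a window. No TATAAA (12.4% of windows) was in the Acot1 or Acot2 window. The longest run of bases that both windows shared was 9, and 26.9% of all windows shared a run that long with the Acot1 window.

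The hearts differed among themselves before any gene was considered. Transcripts of the mitochondrial genome took 33.5% to 43.3% of a library's summed FPKM (fragments per kilobase of transcript, scaled to the size of the library) in db/+ and 42.0% to 44.7% in db/db. The heart db/+ 5 had the lowest such share and the highest score for white adipocyte markers of all 10, and summed adipocyte markers ran from 15.9 to 177 FPKM in db/+ and from 5.96 to 51.7 FPKM in db/db, with all 7 listed in the table. Of these, only Cfd was called by limma, at a mean of 52.3 FPKM in db/+ and 5.46 in db/db. Lep alone had the higher mean in db/db, at 2.78 against 0.149 FPKM, so the markers did not all go the same way. Cardiomyocyte markers, again 7 of 7 present, summed to 8381 to 10555 FPKM in db/+ and 7617 to 8611 FPKM in db/db. Of these markers, only Myl2 was called by limma, lower in db/db (log2 difference -0.36, adjusted p = 0.0466). Myh6 was not called (-0.31, adjusted p = 0.0871), but every db/db heart was under every db/+ heart for both genes. The T and B cell markers were absent from the table. The summed FPKM of a library also differed, from 307869 to 332394 in db/+ and from 332599 to 340468 in db/db. The genotypes did not overlap in this sum, and the ratio of means was 1.04. Peak lists ran from 8462 distinct peaks in db/db 5 to 20021 in db/+ 5. What part these differences had in the results below was not tested, and values without single hearts or with these scores in the fit are given where they matter.

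Acot2, the thioesterase of the mitochondrial matrix, stood at 30.7, 35.4, 37.2, 33.3 and 24.7 FPKM in db/+ hearts 1 to 5 and at 62.6, 64.8, 63.8, 62.4 and 65.3 FPKM in db/db hearts 1 to 5. Every db/db heart was above every db/+ heart. The mean was 63.8 ± 1.28 (SD, n = 5) FPKM against 32.3 ± 4.85 (SD, n = 5) FPKM, a ratio of 1.98. The db/db hearts lay close together, with a coefficient of variation of 2.00% against 15.02% in db/+, where heart 5 was the lowest. On the log2(FPKM + 1) scale the difference was 0.97 with a standard error of 0.09, and 0.89 without that heart.

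Acot1, the cytosolic enzyme encoded next door, was the rarer transcript of the pair. It stood at 3.28, 3.33, 4.26, 2.94 and 2.36 FPKM in db/+ hearts 1 to 5 and at 7.997, 7.31, 9.72, 5.69 and 8.75 FPKM in db/db hearts 1 to 5. Again the genotypes did not overlap. The mean was 7.89 ± 1.52 FPKM in db/db hearts against 3.24 ± 0.692 FPKM in db/+ hearts (SD, n = 5 each), a ratio of 2.44, and the log2 difference was 1.07 with a standard error of 0.14. The pair are close paralogs, and how reads that map to both were assigned is not stated in the material used, so each level is uncertain to that extent. In bulk RNA of whole hearts, a change in the number of cells of a type cannot be told apart from a change in RNA per cell.

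Of the 10344 genes that averaged 1 FPKM or more, 25 had a log2 difference at least as high as that of Acot2 and 22 at least as high as that of Acot1. All 7 members were among those genes, and 2 of the 7, Acot1 and Acot2, were called in the limma fit (adjusted p under 0.05), beside 3.01% of all tested genes in either direction, 1.29% higher in db/db and 1.72% lower. The same 2 were the members whose genotypes did not overlap, which was so for 6.41% of tested genes, 2.23% with db/db higher and 4.18% with db/db lower. Nothing is read from these counts, because the same contrast led to the choice of the members.

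**Figure D1:**
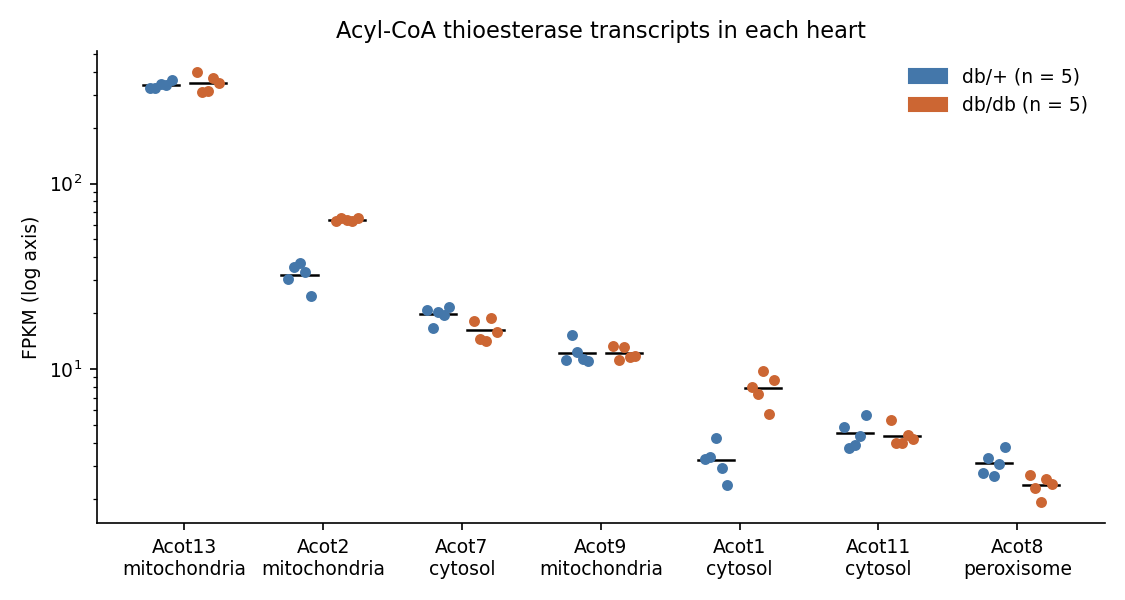
FPKM of each thioesterase in each heart on a log axis, db/+ and db/db side by side, 1 point per heart. Acot2 (24.7 to 37.2 against 62.4 to 65.3 FPKM) and Acot1 (2.36 to 4.26 against 5.69 to 9.72 FPKM) are the members whose points do not overlap between genotypes.

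The other cytosolic members did not share the direction of Acot1. Acot7, a long-chain thioesterase best known from brain, ranged from 16.6 to 21.5 FPKM (median 20.3) in db/+ and from 14.2 to 18.7 FPKM (median 15.9) in db/db, with a log2 difference of -0.26 and a standard error of 0.09. Its ranges overlapped, with 3 db/db hearts under the lowest db/+ heart. Acot11, which carries a lipid-binding START domain and is known from brown fat, averaged 4.49 ± 0.772 FPKM in db/+ hearts and 4.37 ± 0.549 in db/db hearts (SD, n = 5 each), a log2 difference of -0.03 with a standard error of 0.10.

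Among the mitochondrial members, Acot13 and Acot9 showed nearly equal means where Acot2 differed. Acot13, a small hotdog-fold thioesterase that binds the phosphatidylcholine transfer protein, was by far the most abundant, at 329, 328, 344, 341 and 359 FPKM in db/+ hearts 1 to 5 and at 398, 312, 314, 373 and 348 FPKM in db/db hearts 1 to 5. Its db/db values spread to both sides of the db/+ range, and the log2 difference was 0.03 with a standard error of 0.07. Acot9, a mitochondrial thioesterase of broad chain-length preference, averaged 12.2 ± 1.76 FPKM in db/+ hearts and 12.2 ± 0.970 in db/db hearts (SD, n = 5 each). The log2 difference of Acot9 was 0.00 with a standard error of 0.09.

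Acot8, the peroxisomal member, stood at 2.76, 3.31, 2.66, 3.06 and 3.82 FPKM in db/+ hearts 1 to 5 and at 2.69, 2.27, 1.92, 2.54 and 2.40 FPKM in db/db hearts 1 to 5. A single db/db heart, at 2.69 FPKM, lay above the lowest db/+ heart, at 2.66 FPKM. Its log2 difference was -0.29 with a standard error of 0.09. Across all 10344 tested genes the median log2 difference was -0.03.

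The order of the levels was Acot13, Acot2, Acot7 and Acot9 from the highest down in all 10 hearts. Below them the order differed with genotype. In db/+ hearts Acot11, Acot1 and Acot8 followed, but neighbouring ranges overlapped: Acot11 was above Acot1 in 4 of 5 hearts, and Acot1 was above Acot8 in 3 of 5. In every db/db heart Acot1 came next after Acot9, above Acot11 and Acot8, and no neighbouring ranges overlapped. FPKM is scaled to transcript length, so levels of different genes were set side by side. How isoforms of different length and reads shared by paralogs were handled is not stated, which limits such a comparison.

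Summed by compartment, the totals differed less than the leading pair did. The cytosolic members summed to 27.5 ± 2.33 FPKM in db/+ hearts and 28.6 ± 2.02 in db/db hearts (SD, n = 5 each), a ratio of 1.04, with higher Acot1 beside lower Acot7. The mitochondrial members summed to 385 ± 10.04 and 425 ± 37.0 FPKM (SD, n = 5 each), a ratio of 1.10, of which Acot13 made up most. Without Acot13 the mitochondrial sum was 44.5 ± 6.03 FPKM in db/+ hearts and 76.0 ± 1.21 in db/db hearts (SD, n = 5 each), a ratio of 1.71, and the genotypes did not overlap. These sums count transcripts, not enzyme, and the sources used here hold no protein measurement.

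As shares of the summed FPKM of the 7 members in a heart, Acot2 took 7.78% ± 1.22 in db/+ and 14.1% ± 1.39 in db/db, and Acot1 0.780% ± 0.167 and 1.75% ± 0.414 (SD, n = 5 each). The share of Acot13 was 81.9% ± 1.21 in db/+ and 76.4% ± 1.70 in db/db, although its own level was nearly the same. Shares sum to a whole, so the share of one member falls when another's is higher. With Acot13 left out, Acot2 made up 42.8% ± 4.25 of the remainder in db/+ and 59.7% ± 1.94 in db/db. The ratio of Acot2 to Acot1, from 8.72 to 11.3 in db/+ and from 6.57 to 10.97 in db/db, overlapped between genotypes.

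**Figure D2:**
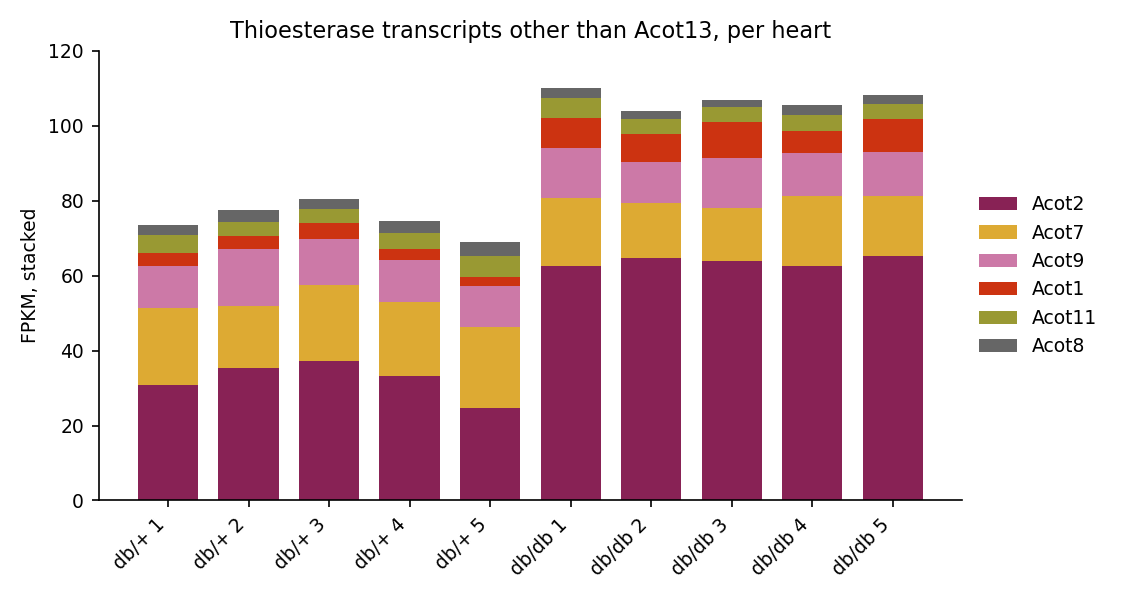
Summed FPKM of the 6 members other than Acot13 in each of the 10 hearts, stacked by gene. The sums ran from 69.0 to 80.6 FPKM in db/+ and from 104 to 110 FPKM in db/db, and the Acot2 segment is the tallest in every heart.

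Genes whose profile over the 10 hearts was most like that of Acot1 and Acot2 were ranked by the root mean square difference between mean-centred log2(FPKM + 1) values, where a smaller value means a closer profile. Each of the pair was the other's nearest gene of 10343, at 0.178, against a median over all genes of 0.616 for Acot1 and 0.546 for Acot2. Next for Acot1 came Fbp2, the muscle fructose bisphosphatase (0.223), Pex11a, a factor of peroxisome division (0.227), Impa2, an inositol monophosphatase (0.242), and Chrna2, a nicotinic receptor subunit (0.243). For Acot2 they were Pex11a (0.181), Acsm5, a mitochondrial acyl-CoA synthetase (0.183), Fbp2 (0.240) and Impa2 (0.247). All of these genes had higher means in db/db hearts, so the ranking holds the difference between genotypes. With each genotype centred on its own mean, 1 of the 5 genes nearest to Acot1 and 0 of the 5 nearest to Acot2 stayed, Acot2 came 165th for Acot1, and Acot1 came 3167th for Acot2.

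The rest of the chr12 cluster was near the lower limit of the table. Acot3 and Acot6, peroxisomal relatives in mouse, averaged 0.302 and 0.528 FPKM in db/+ hearts and 0.669 and 0.638 in db/db hearts, too low for the filter at a mean of 1 FPKM. In a limma fit without that filter the adjusted p was 0.173 for Acot3, with a log2 difference of 0.35 and higher values in db/db, and 0.549 for Acot6, with 0.11. Acot4 and Acot5 were not in the expression table used here, so no level can be given for them. Of the 5 tested genes within 200 kb of the pair, Papln, Numb, Riox1, Dnal1 and Elmsan1, none was called by limma, with log2 differences from -0.07 to 0.16, and 1, Dnal1, had an unadjusted p under 0.05.

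Thioesterases outside the 7 members were compared as a list of 19 genes, of which 12 were in the table and 10 were tested. No gene of this list was called by limma, and 4 had an unadjusted p under 0.05. Of the 10, 2 had a positive log2 difference, and the median was -0.16 against -0.03 over all tested genes. The lowest were Fasn, whose product ends fatty acid synthesis with a built-in thioesterase (-0.80, standard error 0.43, adjusted p = 0.331), and Ppt2, a lysosomal thioesterase (-0.35, standard error 0.12, adjusted p = 0.144). Fasn ran from 1.09 to 10.9 FPKM in db/+ with the highest value in heart 5, which also had the highest adipocyte marker score, and that score's part in it was not tested. Lypla2 and Lypla1, which act on protein-bound acyl groups, had log2 differences of -0.24 and 0.07. Them4, Hibch, Mblac2, Abhd17a and Them6 lay between -0.20 and -0.03, and Ppt1, a lysosomal palmitoyl-protein thioesterase, was at 0.12.

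**Figure D3:**
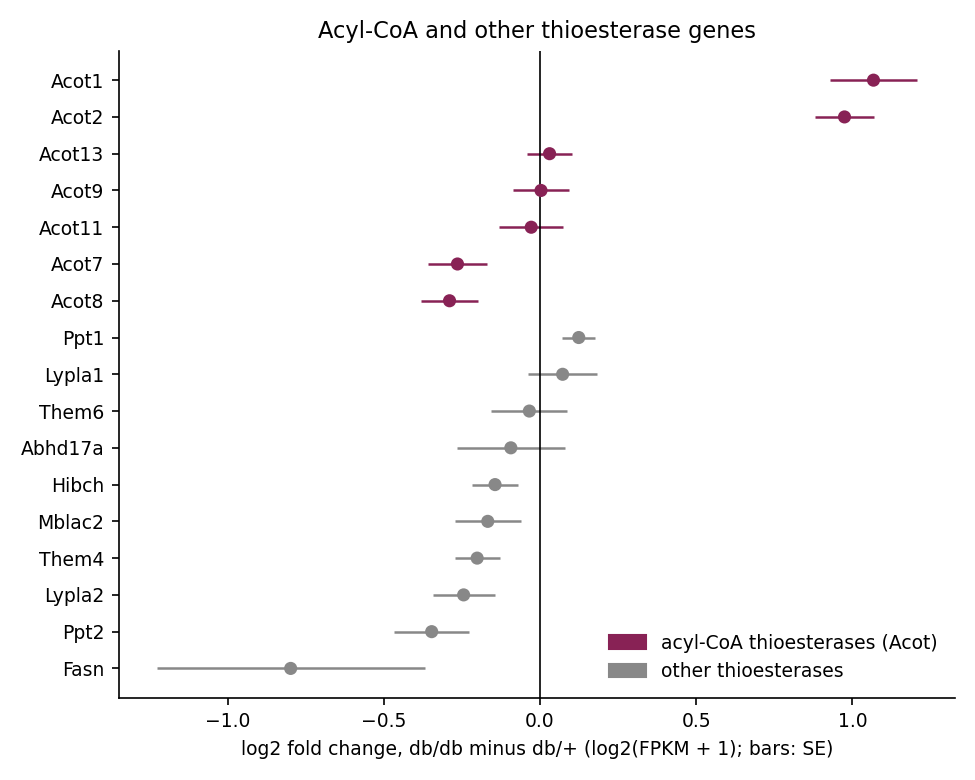
Log2 difference, db/db minus db/+, of the 7 members and the 10 other tested thioesterases, with standard errors from the limma fit on log2(FPKM + 1). Acot1 (1.07) and Acot2 (0.97) lie apart from all the others, which run from -0.80 to 0.12.

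The m6A lists gave each peak's position, and peaks had been called in each heart separately. Of the 7 members, 4 had a peak in at least 1 heart: Acot1, Acot2, Acot11 and Acot13, in 8 regions. Acot7, Acot8 and Acot9 had none in any heart. A gene without a peak is common, at 27.3% of tested genes, 14.1% of those with a mean of 10 to 25 FPKM, where Acot7 and Acot9 lie, and 32.1% of those at 2 to 5 FPKM, where Acot8 lies. No peak says only that none was called at the depth of these libraries, which is unknown.

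Acot2 had 2 m6A regions, each with a peak in all 5 db/db and all 5 db/+ hearts. The proximal, chr12:83992983-83993517, ran from the last coding bases into the 3′ untranslated region, and the distal, chr12:83993665-83993873, ended at the gene's 3′ end. Acot13 had 1 region, in 5 and 5 hearts, at the 3′ end of its messenger RNA, where its coding sequence and 3′ untranslated region meet. Of tested genes that averaged 30 FPKM or more, 52.0% had a peak in all 10 hearts, so that a peak in every heart is no rarity at these levels.

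Acot1 had a region, chr12:84017280-84017743, whose peaks lay in the 3′ untranslated part and reached coding sequence in 2 db/db hearts (3 and 4) and 0 db/+ hearts. It held a peak in 4 of 5 db/db hearts, all but db/db 5, the heart with the shortest list, and in 2 of 5 db/+ hearts, numbers 1 and 3. Fisher's exact test, two-sided, gave p = 0.524, and 1 after Benjamini-Hochberg adjustment over all 15747 regions. Without db/+ 1 or db/+ 3 the count was 4 against 1, which meets the rule used here for a differing region (at least 4 hearts with a peak in one genotype, and no more than 1 in its counterpart). At the authors' threshold tightened to a fold of at least 2 it was 2 against 2, and at a p of at most 1e-05 it was 3 against 1. Input levels of Acot1 were also higher in db/db hearts, and the part of that in how many lists hold a peak was not tested. Acot11 had 4 small regions in its 3′ untranslated part, in 2 db/db hearts (1 and 2) and 1 db/+ heart (5), and none of them remained at a p of at most 1e-05.

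No member's region differed by that rule, beside 1.69% of the 15747 regions and 1.81% of the 7898 genes with a peak. Over all regions, none passed an adjusted p under 0.05 by Fisher's exact test, 106 had an unadjusted p under 0.05, and the smallest p that 5 against 5 hearts can give is 0.00794.

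**Figure D4:**
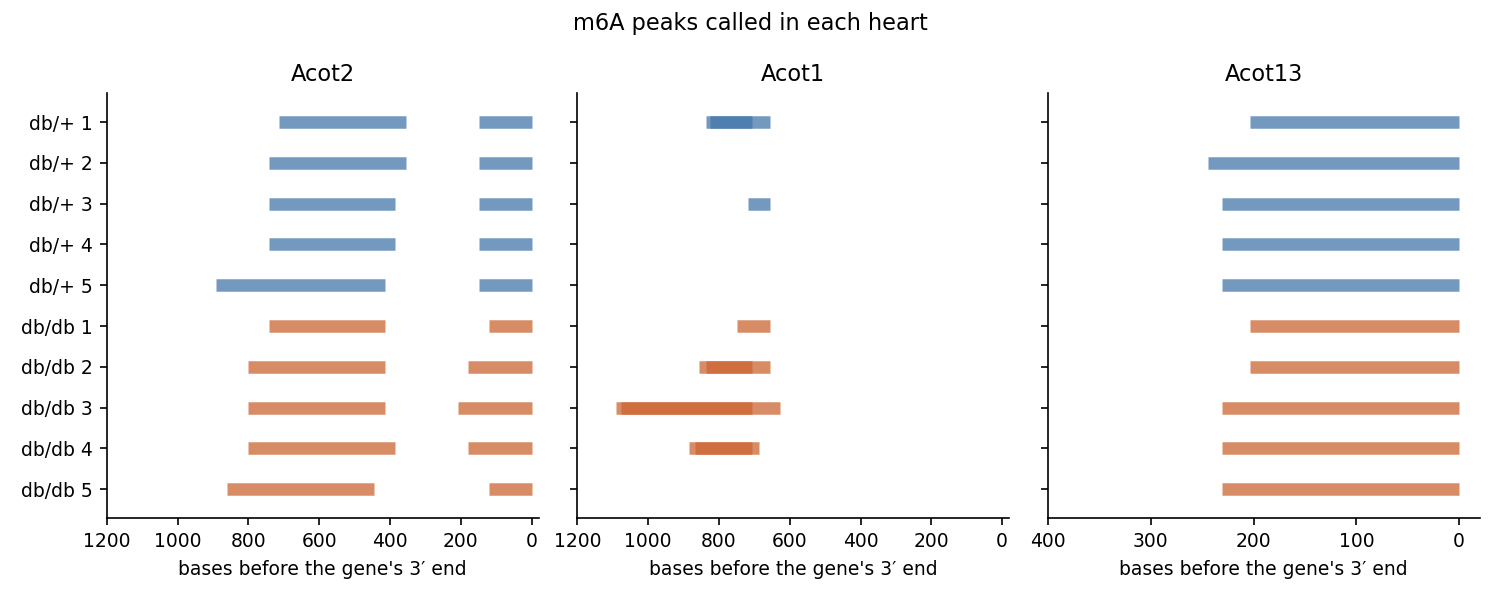
m6A peaks of Acot2, Acot1 and Acot13 in each heart, as bases before the 3′ end of the gene in the authors' table, 1 row per heart, db/+ in blue and db/db in orange, darker where listed peaks of a heart overlap. The part of the Acot13 peak of db/+ 2 that lies across an intron is not drawn. Acot2 and Acot13 have bars in all 10 rows and Acot1 in 6.

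The fold enrichment that the authors' caller gave to each peak, pulled-down over input signal, was set side by side only as a description. For the proximal Acot2 peak it was 6.38, 4.35, 7.40, 6.11 and 7.80 in db/+ hearts 1 to 5 and 3.87, 3.70, 3.36, 2.85 and 3.76 in db/db hearts 1 to 5. Every db/db value was under every db/+ value. Of the 2268 regions with a peak in all 10 hearts, 28 (1.23%) had deposited folds that lay lower in db/db without overlap and 2 (0.0882%) higher. Median folds of the lists ran from 3.18 to 3.82 in db/+ and from 2.75 to 3.80 in db/db. The distal Acot2 peak, at 2.50 to 4.65 in db/+ and 1.83 to 3.60 in db/db, and the Acot13 peak, at 2.99 to 4.14 and 2.24 to 4.04, overlapped between genotypes. Input Acot2 RNA, the denominator of such a fold, was higher in db/db hearts, and its part in the lower fold was not tested. The proximal peak reached coding sequence in 4 db/db hearts and 1 db/+ heart, a count made after the values were seen. Fisher's exact test, two-sided, gave p = 0.206 for this count. How many of all regions show such a split was not counted, so no difference between genotypes is read from it.

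Genes that make, carry or burn acyl-CoA were compared as lists of pathway genes that left out the members. All 16 calls in these lists were higher in db/db, beside 1.29% of all tested genes called higher and 1.72% called lower. The number of genes tested is given with each list. The lists were chosen with earlier results of these data known, so nothing is read from the shared direction of the calls. Without db/+ 5, 15 were called higher and 1 lower, Lpl, the lipoprotein lipase that frees fatty acids from circulating fat (log2 difference -0.28, standard error 0.06, adjusted p = 0.0404), named here after its value was seen. Counts are given for each list without a test between lists, and the genes are named in the order of the route of a fatty acid.

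Of 14 tested acyl-CoA synthetases, which run the opposite reaction, 1 was called higher, Acsm5, a mitochondrial medium-chain enzyme, from 1.98 ± 0.186 to 4.59 ± 0.620 FPKM (log2 difference 0.90, standard error 0.08, adjusted p = 0.00039). The list's median was 0.05, with 7 of 14 positive. Of 19 carriers of fatty acids and acyl groups, with a median of 0.06, none was called lower and 3 were called higher: Slc25a20, the carnitine-acylcarnitine carrier of the inner mitochondrial membrane (0.50), Cd36, the fatty acid uptake receptor (0.45), and Fabp3, the heart fatty acid-binding protein (0.31). Pctp, the partner of Acot13, named for that role and after its value was seen, had a log2 difference of 0.10 and an adjusted p of 0.495.

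Of 25 tested genes of mitochondrial beta-oxidation, 6 were called higher in db/db and none lower, 20 were positive, and the median was 0.18. The 6 called genes included Decr1 (0.61) and Eci2 (0.33), auxiliary enzymes for unsaturated fatty acids, and Ech1 (0.48), which acts on dienoyl-CoAs. The others called were Acaa2 (0.41), a thiolase of the cycle's last step, Acadl (0.30), long-chain acyl-CoA dehydrogenase, and Etfdh (0.34), which passes the electrons on. The count of called genes, 6, was 3 without any one of db/+ 2, 3 or 4 or db/db 1, 2, 3 or 5, and 3 with the adipocyte score or the mitochondrial share in the fit. Not called but without overlap between genotypes, Hsd17b10 (-0.22) and Echs1 (-0.22) were lower in db/db, and Hadh (0.25) and Cpt1a (0.37) higher. Of all tested genes, 4.18% lay lower in db/db without overlap and 2.23% higher. Of 26 tested genes of peroxisomal oxidation and peroxisome assembly, 2 were called higher, Pex11a (0.69), from 6.71 ± 0.890 to 11.4 ± 1.51 FPKM, and Cat (0.44), the catalase that clears the hydrogen peroxide formed there, and the median was 0.01. With the mitochondrial share in the fit, limma called neither Pex11a nor Cat.

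Among 18 tested genes of a list of further PPAR-alpha targets, which shares Acadm with the beta-oxidation list, 4 were called higher and none lower, with a median of 0.26 and 13 positive. Plin5, which coats lipid droplets and ties them to mitochondria, had a log2 difference of 0.69, Ephx2, a soluble epoxide hydrolase, 0.38, and Retsat, retinol saturase, 0.37, and 1 further called member is not reported here. No regulator of this programme was called by limma among 20 tested, of which 3 had an unadjusted p under 0.05, and the list's median was -0.03. Rxrb, a partner receptor, stood at -0.35 (adjusted p = 0.0789) and Ppard, the related receptor PPAR-delta, at -0.31 (adjusted p = 0.102). Ppara itself, named here after its value was seen, averaged 7.14 ± 1.42 FPKM in db/+ hearts and 6.10 ± 0.562 in db/db hearts (SD, n = 5 each), a log2 difference of -0.18 with an adjusted p of 0.387.

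**Figure D5:**
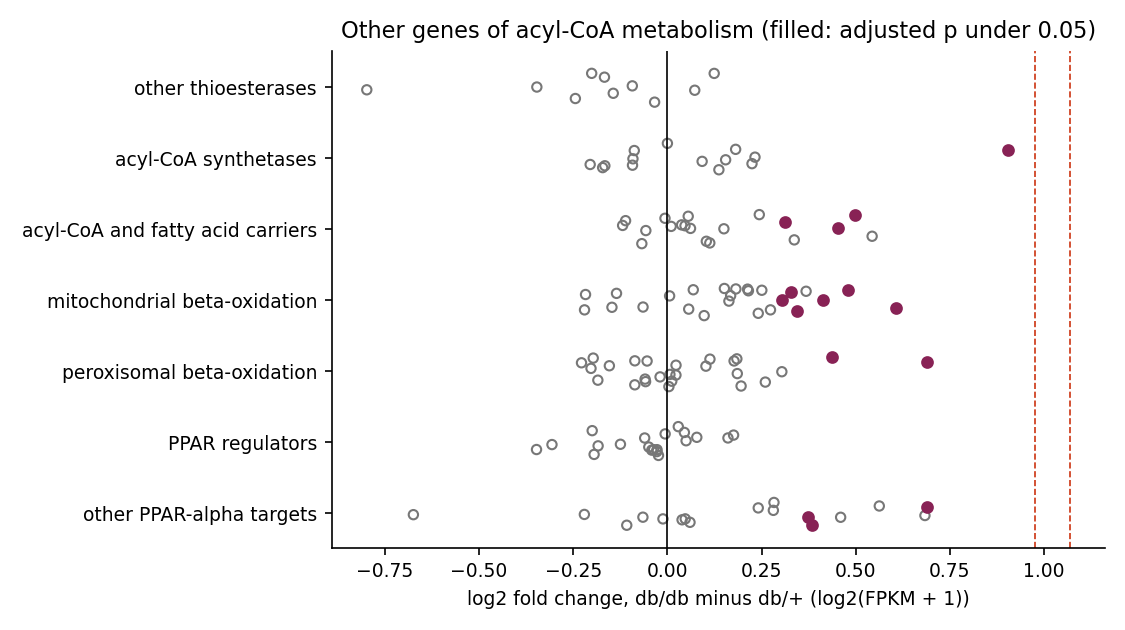
Log2 difference, db/db minus db/+, of every tested gene in 7 lists around acyl-CoA, with filled points for genes called by limma and dashed lines at Acot1 (1.07) and Acot2 (0.97). Called genes all lie to the side higher in db/db, and 1 called gene of the PPAR-alpha target list is not plotted.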

How the data were processed

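Per the labels, frozen hearts gave poly(A)-selected RNA and stranded libraries. FPKM were computed and deposited by the authors for the 10 input libraries. The peak lists, deposited by the authors for each heart, give a fold enrichment (a ratio of pulled-down to input signal) and a p-value for each peak, per the file headers. The submitters' processing notes name FastQC 0.11.7, Trimmomatic 0.32, HISAT2 2.1.0 and mm9. Member positions nevertheless fit GRCm38, with a start or end within 50 bp for 7 of 7. No source used here names the programs for FPKM and peaks, and depth is unknown. P-values of limma set the difference between genotypes against the spread between hearts, and those of Fisher's exact test rest on counts of hearts with a peak.

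The fit across the 10344 genes averaging 1 FPKM or more used limma 3.58.1 in R 4.3.3 with a trend on log2(FPKM + 1), which understates changes of low genes, and a gene was called where its p, adjusted by Benjamini-Hochberg, was under 0.05. Tested on simulated data for this comparison over 10344 genes, it recovered 97% of changes of 1 and 71% of changes of 0.5 on the log2 scale. The simulated noise was drawn independently for each gene and heart. Differences shared by a whole library, such as in mitochondrial share, were not in it, so these rates need not hold for the real hearts. Of 146953 peak lines, 5117 repeated positions were dropped, and peaks were merged over hearts at an overlap of 1 bp (Fisher's exact test, SciPy 1.17.1). Members, gene lists and tests were chosen with earlier results of these data known. Named genes were all members, other thioesterases, up to 6 called genes of each list (or the 2 with the smallest p), the 5 nearest profiles and neighbours within 200 kb. Pctp, Ppara, Lpl, Hsd17b10, Echs1, Hadh, Cpt1a, Myl2 and Myh6 were added after their values were seen. Some genes are not reported here.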

Additional observations from a re-analysis of the deposited data

Results flagged for a closer look

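Single hearts stood apart from the others of their genotype in 3 of 48 groups of values checked by Dixon's test, and chance flags about 1 group in 20. In db/db 3, Acot8 took 0.457% of the summed FPKM of the 7 members, the lowest of its genotype, where the other db/db hearts had 0.527% to 0.547%. In db/+ 2, Acot9 took 3.76%, the highest of its genotype, where the other db/+ hearts had 2.57% to 2.89%. In db/+ 5, the ratio of Acot13 to Acot2 was 14.5, where the other db/+ hearts had 9.24 to 10.7. That heart also had the lowest Acot2 level and the lowest share of mitochondrial transcripts, and the part of that share was not tested.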

How the results depend on the processing

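The log2 differences of the 7 members moved by less than the spread between replicates under the alternatives run, with 1 exception. Acot2 alone moved by more than that spread, to 0.81 with the mitochondrial share as a covariate. Leaving out single hearts gave 0.99 to 1.17 for Acot1 and 0.89 to 1.03 for Acot2. Calls over all pathway lists together, 16, fell to 9 with the mitochondrial share in the fit, and were 11 to 16 without single hearts, with 1 lower call without db/+ 5. The same-numbered hearts of the 2 genotypes did not deviate together (correlations from -0.11 to 0.03). Such correlations cannot show whether the animals were paired by number, and the main fit treated the hearts as unpaired. With the replicate number as a block, 9 pathway genes were called, and 72 of all tested genes against 311. Calls over all genes were 137 with the mitochondrial share, 200 with the adipocyte score and 112 to 315 without single hearts. The 133 higher and 178 lower calls became 161 and 113 with library medians set equal, 149 and 111 when scaled without mitochondrial transcripts, and 164 and 132 with quantile normalization. Of the 5 genes nearest to Acot1 and to Acot2, 1 and 0 stayed with each genotype centred on its own mean, an alternative that removes the difference between genotypes. Carriers called, 3, were 5 when scaled without mitochondrial transcripts, 2 with the mitochondrial share and 1 with the replicate block. For all others of these changes the cause was not tested.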
